A study of Mus musculus with 10 samples.

Results

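Transcript levels of 9 target genes of the tumour suppressor p53 were examined in mouse T cell lymphomas of the mediastinum driven by an NPM-ALK transgene. The pathway was defined by 10 gene symbols, Trp53, Mdm2, Ccng1, Phlda3, Sesn1, Perp, Aen, Trp53inp1, Eda2r and Zmat3. Trp53, which encodes p53 itself, is not analysed here. The other 9 were among 19937 genes that a probe set with a single gene symbol named, and each was read by 1 probe set. Of these 9, 8 lay over the filter on dim probe sets (a mean log2 intensity of at least 6.35 over all arrays) and entered the test with 12670 genes in all. Eda2r, with a mean of 5.29, lay under the filter, and Perp, with a mean of 6.82, was the member nearest above it.

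The WASP-deficient group held 5 mice (WASP -/-; knockout mice of either sex were eligible) and the WASP-intact group 5 mice (labelled WT). All 10 mice carried the NPM-ALK transgene on a C57BL/6 background, no animal was treated, and the lymphomas arose spontaneously within 4 to 5 months of age. NPM-ALK is the fusion kinase of anaplastic large cell lymphoma, and WASP, encoded by Was, promotes actin branching in blood cells. One array measured the tumour RNA of each mouse, and no source used here names the promoter that drives the transgene.

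The transcription factor p53 is held low in unstressed cells by Mdm2, a ubiquitin ligase that is itself a p53 target and so closes a feedback loop. After DNA damage or oncogene activity p53 accumulates and switches on genes that stop the cell cycle, repair DNA, restrain growth signalling or start apoptosis. In thymocytes, the precursors of T cells, this pathway is known for the death that follows irradiation, and loss of p53 in mice is known for thymic lymphoma.

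p53 binds DNA as a tetramer at pairs of a 10-base element, the p53 half-site. The 250 bases before the annotated starts of the genes were searched for the half-site consensus, which reads the same on both strands, in RefSeq sequences of the build GRCm38.p6. The table held 9 promoters of 7 of the 10 genes, and 5 of the 9 held 1 half-site each, against 1 or more in 7.13% of the 32851 promoters in the table. None of the 9 held a pair. Of all promoters, 21 held 2 half-sites with a spacer of 0 to 13 bases. A match is a description of these letters and not evidence of binding. The 5 were the promoters of Mdm2, Ccng1 and Trp53 and 1 of the 2 promoters each of Aen and Sesn1. The stretches of 30 bases below show how the element, in capitals, varies between an apoptotic nuclease gene, a growth inhibitor gene and the feedback ligase gene.
Aen, chr7:78895927-78895956, plus strand: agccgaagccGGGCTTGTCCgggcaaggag
Sesn1, chr10:41887256-41887285, plus strand: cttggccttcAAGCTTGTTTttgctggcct
Mdm2, chr10:117710925-117710954, minus strand: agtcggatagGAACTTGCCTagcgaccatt
The half-site began 121 bases before the start in Aen, 173 in Sesn1 and 186 in Mdm2. The whole 250-base window is shown for Ccng1 and Eda2r, the 2 genes with the widest gap between Cd2-high and Cd2-low arrays, a split defined below. Capitals again mark the half-site, which began 185 bases before the start in Ccng1 and was not found in the window of Eda2r.
Ccng1, chr11:40755287-40755536, minus strand: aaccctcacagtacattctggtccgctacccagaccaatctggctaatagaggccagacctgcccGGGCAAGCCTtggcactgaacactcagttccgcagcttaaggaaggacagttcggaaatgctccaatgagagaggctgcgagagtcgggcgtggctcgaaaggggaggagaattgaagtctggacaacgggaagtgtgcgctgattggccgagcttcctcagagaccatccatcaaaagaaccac
Eda2r, chrX:97377210-97377459, minus strand: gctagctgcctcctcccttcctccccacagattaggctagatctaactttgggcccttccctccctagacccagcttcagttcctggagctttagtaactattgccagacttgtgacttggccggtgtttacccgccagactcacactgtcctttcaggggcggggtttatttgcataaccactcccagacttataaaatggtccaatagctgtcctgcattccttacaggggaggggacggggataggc

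On Cd2 and some other T cell genes 3 arrays stood apart from the other 7. Cd2, which helps T cells adhere to their partner cells, was at log2 11.52 on WASP-deficient array 1 and at 11.18 and 11.30 on WASP-intact arrays 4 and 5, against 6.10 to 6.90 elsewhere. They are called Cd2-high (log2 of 9 or more) and the other 7 Cd2-low. This split came from the data and is no group of the study, so levels on its sides are described without a test. Was lay between 7.92 and 8.20 in WASP-deficient lymphomas and between 9.11 and 9.34 in WASP-intact lymphomas, so it matched each label. Xist, made from the inactive X chromosome of females, was at 11.52 to 11.90 on 4 arrays, WASP-intact 1, 2, 4 and 5, and between 4.40 and 5.58 on the other 6, so that genotype and sex went largely together. All 14 measured T cell markers lay over the filter, with Cd3e at 12.06 to 12.59 on all arrays. Of these 14, 4 lay on the Cd2-high arrays above all Cd2-low arrays, Cd2 itself included, 2 lay below and 8 overlapped. Of all tested genes 14.4% lay above and 16.1% below, so the split was not particular to T cell genes. Of the other CD3 chains, Cd3d and Cd3g followed the Cd2 split and Cd247 did not. Cd3d was at 5.26 to 6.47 on the Cd2-high arrays against 8.96 to 10.08 on the Cd2-low arrays. Cd3g was at 6.29 to 10.24 against 11.45 to 12.23. The ranges of Cd247 overlapped, with a median of 9.85 on the Cd2-high arrays and 9.77 on the Cd2-low arrays. Of the B cell markers, 4 of 6 measured lay under the filter. Median intensity per array was 116.7 to 122.7 on the linear scale.

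No p53 target gene passed the test of genotype. Of the 8 members tested, 0 were higher and 0 lower with WASP deficiency by limma at an adjusted p under 0.05. Of all tested genes 0.00789% were called in either direction, and the only gene called was Was itself (limma adjusted p = 0.00088). Eda2r was not called in the fit without the filter, where 0.00502% of genes were, and 0 members were called on the 7 Cd2-low arrays, where 0.0158% of genes were. At an unadjusted p under 0.05, 2 members were counted, Perp with a higher and Aen with a lower value in WASP-deficient lymphomas, against 2.89% of all genes, 1.56% of them higher and 1.33% lower. Values were higher in WASP-deficient lymphomas for 1 of the 8 and lower for 7, with a median log2 difference of -0.20, beside 6195 higher and 6475 lower values over all genes with a median of 0.00. Without the Cd2-high arrays the median of the 8 was 0.00. The limma adjusted p was 0.999 for all 9 members, Eda2r from the fit without the filter, and the ranges of both genotypes overlapped for each.

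**Figure D1:**
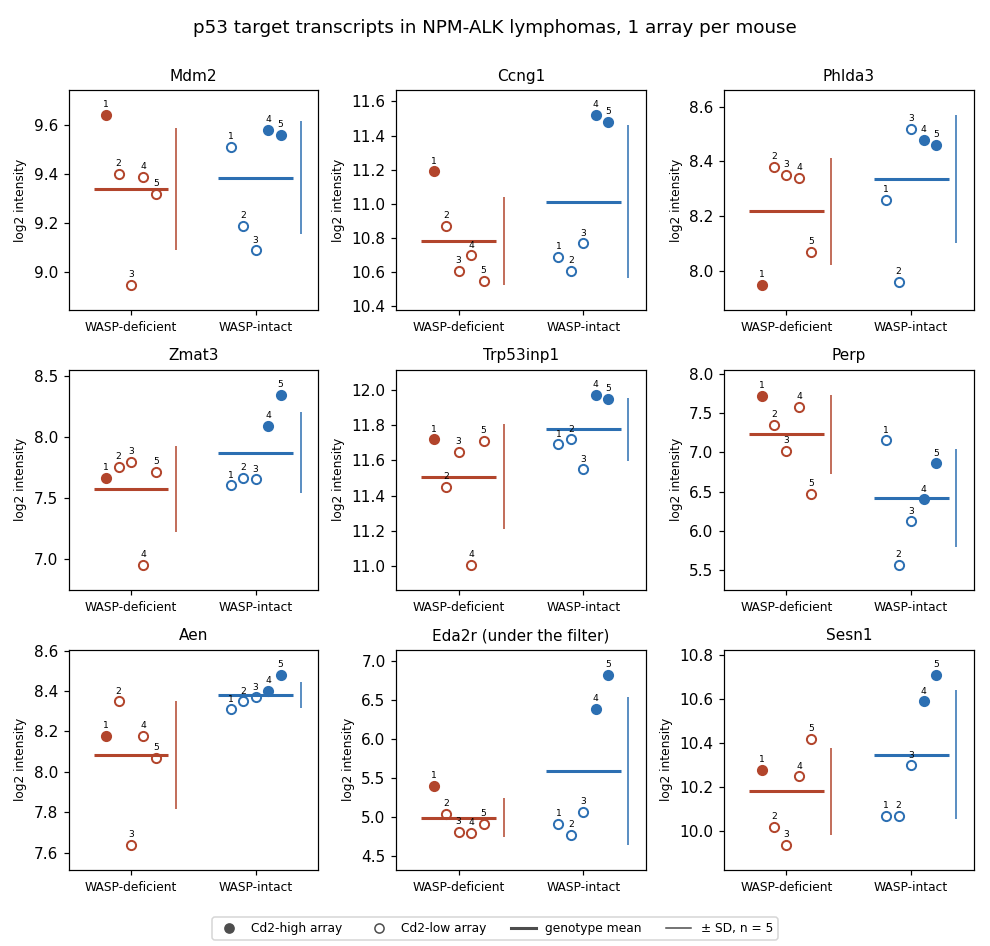
Log2 intensity of 9 p53 target transcripts on each array, WASP-deficient left and WASP-intact right in every panel, with the replicate number above each point, the mean as a bar and the SD as a line (n = 5 each). Filled points are the 3 Cd2-high arrays, which sit at the top for Mdm2, Ccng1 and Eda2r, while the genotypes overlap in all panels.

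The feedback genes did not pass the test of genotype. Mdm2 was at log2 9.64, 9.40, 8.95, 9.39 and 9.32 in WASP-deficient lymphomas and at 9.51, 9.19, 9.09, 9.58 and 9.56 in WASP-intact lymphomas. The difference was -0.04 (SE 0.14, 95% interval -0.37 to 0.28, n = 5 each), and the exact two-sided permutation p was 0.778. That interval corresponds to 0.776 to 1.21 times the WASP-intact level, so changes within it are not excluded by 5 arrays per genotype. Ccng1, which encodes cyclin G1, a partner of the phosphatase PP2A that acts on Mdm2, was at 11.19, 10.87, 10.61, 10.70 and 10.55 in WASP-deficient lymphomas and at 10.69, 10.61, 10.77, 11.52 and 11.48 in WASP-intact lymphomas. The highest value of each genotype came from a Cd2-high array. The Ccng1 difference of -0.23 (SE 0.21, 95% interval -0.70 to 0.23) became -0.01 (SE 0.11) on the 7 Cd2-low arrays, with a 95% interval of -0.26 to 0.24 there.

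Genes that restrain growth signalling did not separate the genotypes either. Phlda3, a small membrane-binding protein that competes with the kinase Akt, averaged 8.22 ± 0.20 in WASP-deficient and 8.34 ± 0.23 in WASP-intact lymphomas (log2 intensity, SD, n = 5 each). It varied least of the 9 members, by 0.57 between its lowest and highest array. Sesn1, a sestrin that holds back the growth kinase complex mTORC1, averaged 10.18 ± 0.20 in WASP-deficient and 10.35 ± 0.29 in WASP-intact lymphomas. Its difference was -0.17 (SE 0.15) over all arrays and 0.01 (SE 0.14) over the Cd2-low arrays.

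Among genes tied to apoptosis, Perp and Aen had the smallest unadjusted p, and neither passed. Perp, a membrane protein known both for thymocyte death and for desmosomes, the junctions of epithelia, was at log2 7.72, 7.35, 7.02, 7.58 and 6.47 in WASP-deficient lymphomas. In WASP-intact lymphomas it was at 7.15, 5.57, 6.12, 6.40 and 6.86. It had the widest range of the 9, 2.15, and the 3 highest values were those of WASP-deficient arrays 1, 4 and 2. The difference was 0.81 (SE 0.32, 95% interval 0.10 to 1.52, limma adjusted p = 0.999), or 1.75 times the WASP-intact level. On the Cd2-low arrays it was 0.83 (SE 0.38, 95% interval -0.03 to 1.69, limma adjusted p = 0.999).

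Values of epithelial markers differed in the same direction as Perp. The summed level of 11 epithelial markers lay at log2 11.17 to 11.95 on WASP-deficient arrays and at 10.29 to 11.43 on WASP-intact arrays. All 10 tested markers of that list had higher values in WASP-deficient lymphomas, with a median difference of 0.70, and 0 passed. The direction was not particular to epithelium. All 10 tested macrophage markers also had higher values, with a median difference of 0.21, and 0 passed. All 8 tested muscle and all 7 tested fibroblast markers had lower values. Krt5, a keratin of basal epithelium, was at 8.25, 8.96, 8.18, 8.26 and 7.01 in WASP-deficient and at 7.78, 6.04, 6.07, 6.59 and 7.59 in WASP-intact lymphomas. For Perp and for Krt5 the lowest WASP-deficient array was replicate 5 and the lowest WASP-intact array replicate 2. The summed markers did not follow Perp throughout, since WASP-deficient array 1, highest for Perp, was at 11.34, and their lowest array was WASP-intact 4. The part of epithelial RNA in the Perp values was not tested, and in bulk tumour RNA fewer cells of a type and less RNA per cell cannot be told apart.

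Aen, a nuclease that p53 induces during apoptosis, was at log2 8.18, 8.35, 7.64, 8.18 and 8.07 in WASP-deficient lymphomas and at 8.31, 8.35, 8.37, 8.40 and 8.48 in WASP-intact lymphomas. The WASP-intact values lay within 0.17 of one another, and 4 of the 5 WASP-deficient values lay below all of them. The difference was -0.29 (SE 0.12, 95% interval -0.56 to -0.02, limma adjusted p = 0.999). WASP-deficient array 3 was lowest, and without it the difference was -0.18. Trp53inp1, a stress-induced nuclear protein that promotes p53-dependent death and autophagy, averaged 11.50 ± 0.30 in WASP-deficient and 11.78 ± 0.18 in WASP-intact lymphomas. Its difference was -0.27 (SE 0.15), and its lowest array was WASP-deficient 4, at 11.01, without which the difference was -0.15.

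Zmat3, a zinc finger protein that binds RNA, was at log2 7.66, 7.75, 7.79, 6.95 and 7.71 in WASP-deficient lymphomas and at 7.60, 7.66, 7.65, 8.09 and 8.34 in WASP-intact lymphomas. WASP-deficient array 4 lay below the other 9 and the Cd2-high WASP-intact arrays 4 and 5 above them. The difference was -0.30 (SE 0.20) over all arrays and -0.09 (SE 0.20) over the Cd2-low arrays, and -0.14 without WASP-deficient array 4. Eda2r, an X-linked receptor of the TNF receptor family that binds ectodysplasin A2, was at 5.40, 5.04, 4.81, 4.80 and 4.91 in WASP-deficient lymphomas. It was at 4.91, 4.77, 5.07, 6.39 and 6.82 in WASP-intact lymphomas. Only the Cd2-high WASP-intact arrays 4 and 5 reached the level of the filter, 6.35. The difference of -0.60 (SE 0.38, fit without the filter) became -0.03 (SE 0.11) on the Cd2-low arrays.

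**Figure D2:**
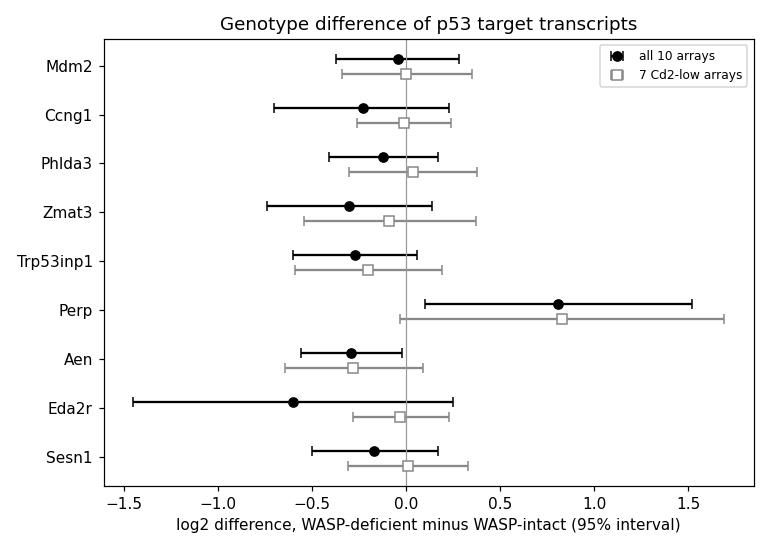
Log2 difference of each p53 target transcript, WASP-deficient minus WASP-intact, with its 95% interval from limma, over all 10 arrays (filled circles) and over the 7 Cd2-low arrays (open squares). Ccng1 is at -0.23 over all arrays and -0.01 without the Cd2-high ones, Eda2r at -0.60 and -0.03, and Perp at 0.81 and 0.83.

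Members were also set side by side on the Cd2-high and Cd2-low arrays, with no test for the reason given above. Of the 8 members over the filter, 2 lay on all 3 Cd2-high arrays above all 7 Cd2-low arrays and 0 lay below them, where 14.4% of all tested genes lay above and 16.1% below, 30.5% in all. Ccng1 was at log2 11.19, 11.48 and 11.52 on the Cd2-high arrays and had a lowest, median and highest value of 10.55, 10.69 and 10.87 on the Cd2-low arrays. The medians differed by 0.79, a factor of 1.73. Mdm2 was at 9.56, 9.58 and 9.64 on the Cd2-high arrays, against 8.95, 9.32 and 9.51 as lowest, median and highest on the Cd2-low arrays. Only 0.05 separated these ranges, less than the SD of Mdm2 within either genotype.

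Eda2r, under the filter, was also separated, at log2 5.40, 6.39 and 6.82 on the Cd2-high arrays, against a lowest, median and highest value of 4.77, 4.91 and 5.07 on the Cd2-low arrays. The medians differed by 1.48 on the log2 scale, but no fold is given, since all Cd2-low values and 1 of the 3 Cd2-high values lay under the filter. Without the filter, 10.6% of 19937 genes lay above in this way. Sesn1, Zmat3 and Trp53inp1 had medians higher by 0.51, 0.43 and 0.30 on the Cd2-high arrays, but their ranges overlapped. In each of these 3 genes WASP-intact arrays 4 and 5 were the 2 highest of all, and WASP-deficient array 1 lay among the Cd2-low arrays. Aen and Phlda3 had medians 0.09 and 0.13 higher with overlapping ranges, and Perp had a median 0.16 lower (-0.16), also overlapping.

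**Figure D3:**
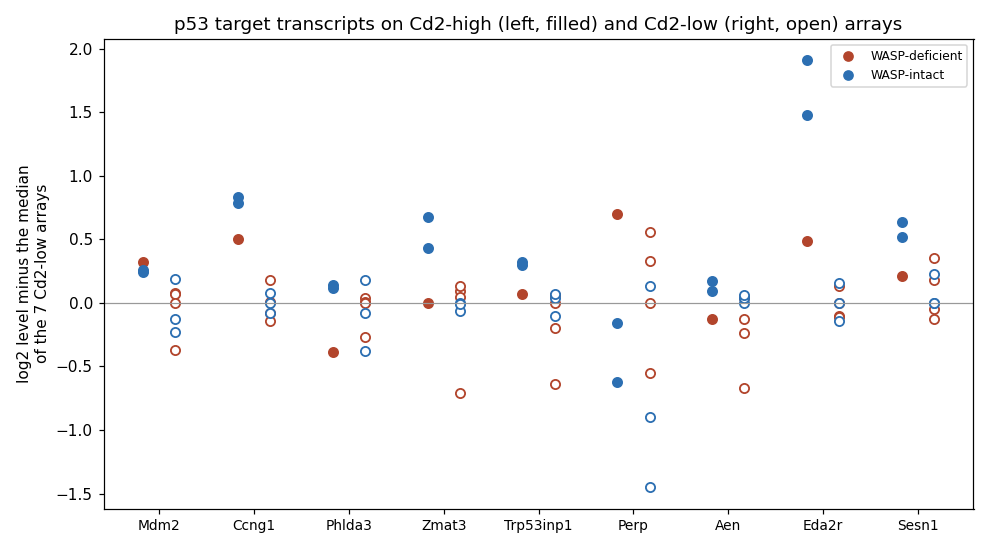
Log2 level of 9 p53 target transcripts on each array minus that gene's median over the 7 Cd2-low arrays, with the 3 Cd2-high arrays left (filled) and the 7 Cd2-low arrays right (open) of each pair, coloured by genotype. Eda2r and Ccng1 are higher on all 3 Cd2-high arrays, Mdm2 by a narrow margin, and Perp scatters widely on both sides.

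The Cd2-high arrays were not alike in these genes. WASP-intact arrays 4 and 5 were each among the 3 highest arrays for 8 of the 9 members, and WASP-deficient array 1 for 4 of 9. The same order was not counted over all genes, so these counts are not read as a trait of p53 targets. WASP-deficient array 1 was the highest array for Mdm2 and Perp and the lowest for Phlda3, at 7.95. The summed level of 8 fibroblast markers also separated the split, at log2 12.28 to 13.05 on the Cd2-high arrays and 11.23 to 12.07 on the Cd2-low arrays. Of the 7 fibroblast markers over the filter, 4 (57.1%) lay on the Cd2-high arrays above all Cd2-low arrays, against 14.4% of all tested genes, among them Dcn, a matrix proteoglycan, at 10.54 to 11.38 against 9.03 to 10.41. Muscle markers reached a summed level of 12.69 on WASP-intact array 4 and 10.48 on WASP-intact array 5, while the remaining 8 arrays lay between 9.94 and 10.13. The part of either cell type in the Ccng1 and Eda2r values was not tested.

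**Figure D4:**
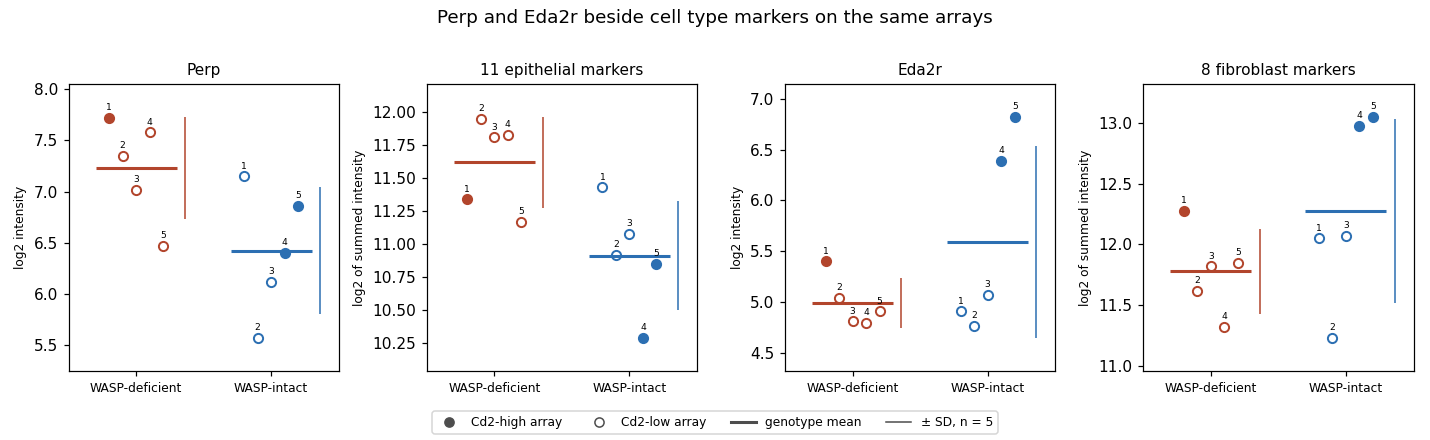
Log2 intensity of Perp and Eda2r beside the log2 of the summed intensity of 11 epithelial and 8 fibroblast markers on the same arrays, WASP-deficient left and WASP-intact right, with means, SD (n = 5 each) and replicate numbers, and Cd2-high arrays filled. Perp and the epithelial markers are lowest within WASP-deficient lymphomas on array 5, and Eda2r and the fibroblast markers are highest on WASP-intact arrays 4 and 5.

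Regulators upstream of p53 did not pass the test of genotype. Of 18 listed regulators 16 were tested, and 0 were called higher and 0 lower at an adjusted p under 0.05. Of all tested genes 0.00789% were called. Values were higher in WASP-deficient lymphomas for 6 regulators and lower for 10, with a median difference of -0.07. Mdm4, the relative of Mdm2 that blocks the activation domain of p53, had the smallest unadjusted p. It was at log2 10.34, 10.29, 9.91, 10.03 and 10.25 in WASP-deficient lymphomas and at 10.37, 10.48, 10.47, 10.55 and 10.44 in WASP-intact lymphomas. All 5 WASP-deficient values lay below all 5 WASP-intact values, by a margin of 0.03 between 10.34 and 10.37, as did those of 0.245% of all tested genes. The difference was -0.30 (SE 0.10, 95% interval -0.51 to -0.09, limma adjusted p = 0.999), and -0.32 on the Cd2-low arrays.

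The damage kinases Atm, Atr, Chek1 and Chek2, which signal to p53 after DNA breaks or stalled replication, differed by -0.19, -0.16, 0.14 and -0.07. Trp63, the p53 relative of basal epithelium, differed by 0.22. Cdkn2a, whose Arf product releases p53 from Mdm2, differed by -0.07 with genotype and was at 7.05, 7.20 and 7.23 on the Cd2-high arrays against 6.50 to 6.79 on the Cd2-low arrays. Hipk2, a kinase that phosphorylates p53, was at 11.67, 11.88 and 12.04 on the Cd2-high arrays against 10.47 to 10.87 on the Cd2-low arrays, the widest range of the regulators. In all, 3 of 16 regulators (18.8%) lay above and 2 (12.5%) below on the Cd2-high arrays, near the 14.4% and 16.1% of all tested genes.

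Other p53 targets gave no call either. Of 40 listed targets 35 were tested, with 17 higher and 18 lower values in WASP-deficient lymphomas, 0 past the threshold and a median difference of -0.02. Cdkn1a and Bax are not analysed here. The apoptosis genes Bbc3 and Pmaip1, which encode the BH3 proteins PUMA and NOXA, differed by -0.08 (SE 0.08) and 0.15 (SE 0.10), and Gadd45a, a growth arrest gene, by 0.16 (SE 0.18). The targets of smallest unadjusted p were Dcxr, a carbonyl reductase (0.22), Xpc, a DNA damage sensor of excision repair (-0.23), Pmaip1 and Plk3, a stress-responsive kinase (0.31).

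The targets of widest range were set apart by the Cd2 split. Fas, the death receptor, was at log2 7.97 or more on the Cd2-high arrays, up to 8.22, and its median was 1.76 higher there than on the Cd2-low arrays, which it did not overlap. Ddit4, an inhibitor of mTORC1 that hypoxia and p53 induce, went the other way, at 9.79, 9.81 and 10.28 on the Cd2-high arrays against 10.49 to 11.59 on the Cd2-low arrays. Ak1, an adenylate kinase also abundant in muscle, was at 8.56 on WASP-intact array 4, the array with the highest summed muscle markers. It was at 7.22 on WASP-intact array 5 and 6.82 on WASP-deficient array 1, against 6.42 to 6.64 on the Cd2-low arrays. The summed muscle level of WASP-deficient array 1 was 9.99, within the 9.94 to 10.13 of the Cd2-low arrays. The part of muscle RNA in the Ak1 values was not tested. Of the 35 targets, 8 (22.9%) lay above and 6 (17.1%) below on the Cd2-high arrays, against 14.4% and 16.1% of all tested genes. The targets thus lay on both sides of the split, with a median difference of -0.04 between the medians of the Cd2-high and Cd2-low arrays.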

How the data were processed

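The authors deposited probe set intensities made with RMA, per the submitters' processing notes; no source used here names its software version or annotation. Values between 3.309 and 15587.9 show a linear scale, so log2 was taken first, although the design had allowed for log2 values. RMA normalizes quantiles, so differences in total RNA cannot be read. Probe sets were named by the platform annotation: 21640 of 34760 had 1 symbol, 1321 several and 11799 none. Gene IDs of 21553 matched RefSeq (GRCm38.p6) and 0 symbols changed. Probe sets with a mean under the 40th percentile (log2 6.35) were left out, and the highest mean was kept per gene. Genotypes were compared with limma 3.58.1 in R 4.3.3 (lmFit, eBayes, no covariate, Benjamini-Hochberg over 12670 genes, threshold 0.05). The fit was also run on simulated data with independent noise per gene. Those data held no Cd2 split and no sex difference, so they do not show the power for the members. An exact permutation test was added for Mdm2; its smallest possible p is 0.00794. Figures used matplotlib 3.10.9 in Python 3.11.15. The number of arrays limits the precision.

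The labels call the replicates biological. Members, lists and the Cd2 split were chosen with earlier results of these data known. Named beside the members were, per list, the 4 of smallest p, the 3 of widest range and textbook members. Krt5, Dcn, Cd3e, Cd3d, Cd3g and Cd247 are marker examples named after their values were seen. Lists of regulators, other targets and markers of T, epithelial, macrophage, B, adipocyte, muscle, fibroblast, endothelial and erythroid cells were described by counts. A summed level is log2 of the summed linear intensities. Summed macrophage markers lay at 12.62 to 13.30 in WASP-deficient and 12.63 to 13.07 in WASP-intact lymphomas, adipocyte at 10.02 to 10.41 and 10.39 to 10.69, endothelial at 10.51 to 11.32 and 10.65 to 11.13, and erythroid at 7.94 to 9.08 and 7.82 to 8.32. Alternatives were other filters, probe averaging, variance models, array weights, covariates, median centring and leaving out arrays.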

Additional observations from a re-analysis of the deposited data

Results flagged for a closer look

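In 26 named genes, each genotype's 5 arrays were examined for a single array far from the other 4, in 52 groups. Chance flags about 1 group in 20, and 4 were found. Zmat3 was at log2 6.95 on WASP-deficient array 4, against 7.66 to 7.79 on the other 4 WASP-deficient arrays. Atr was at 8.38 on WASP-deficient array 3, and at 8.92 or more on the other 4. Pmaip1 was at 6.41 on WASP-intact array 4, against 6.64 to 6.71, and Chek1 at 9.12 on the same array, against 9.42 to 9.53.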

How the results depend on the processing

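No member passed the threshold in any of 175 values under alternatives, where the lowest limma adjusted p was 0.659, and 163 kept the direction. The 163 include values from other filters, probe averaging, variance models and the replicate block. These leave each member's difference as it was, so they could not turn its direction. Perp, Aen, Trp53inp1, Zmat3 and Eda2r kept it throughout, with Perp between 0.60 and 1.11, Aen between -0.36 and -0.17, Trp53inp1 between -0.33 and -0.04, Zmat3 between -0.36 and -0.08 and Eda2r between -0.80 and -0.03. With Xist class as a covariate Trp53inp1 was -0.04, Zmat3 -0.08 and Eda2r -0.08. Array weights turned Mdm2 to 0.06, Ccng1 to 0.04, Phlda3 to 0.06 and Sesn1 to 0.01. Without the Cd2-high arrays Mdm2 was 0.00, Phlda3 0.04 and Sesn1 0.01, and Mdm2 was 0.02 with Cd2 class as a covariate. With Xist class as a covariate Mdm2 was 0.25 and Ccng1 0.02. Leaving out single arrays gave -0.12 to 0.05 for Mdm2, positive without WASP-deficient array 3 or WASP-intact array 4. The cause was not tested. The median of the members was 0.03 with array weights and 0.00 without the Cd2-high arrays.

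Over all genes, 1 was called, Was itself (limma adjusted p = 0.00088). The count was the same in 15 of 20 alternatives. It was 2 without the Cd2-high arrays, 0 with Xist class as a covariate (185 genes at an unadjusted p under 0.05) and 1 to 4 leaving out single arrays, with 4 without WASP-intact array 3 and 2 without WASP-deficient array 1. With the replicate number as a block it was 0 (248 at an unadjusted p under 0.05). Where the count was 0, Was was not called either, so the absence of member calls there shows little. Deviations of same-numbered arrays from their genotype means correlated at -0.71 to 0.37 over genes. These deviations also carry the Cd2 split, so the correlations cannot show whether the numbers pair the animals. No member call changed with the block. Perp and Eda2r lie near or under the filter, and Perp is not tested with the 60th percentile filter.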
